A study of Mus musculus with 4 samples.

Results

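Heat shock proteins and their partners are chaperones, which help other proteins fold, and 10 of their genes are described here: Hspa1a, Hspa1b, Dnajb1, Hsph1, Hspb1, Hspa8, Hsp90aa1, Hsp90ab1, Hspd1 and Hspe1. They were chosen by symbol, not by any measured value, and are 10 of the 31054 features in the deposited matrices. All 10 were present in each of the 4 libraries. RNA had been measured in single cells of the intestine of Bmi1-GFP mice, whose green fluorescent reporter marks cells that transcribe the Bmi1 locus. The 4 groups were embryos at embryonic day 12.5 (E12.5), embryos at embryonic day 17.5 (E17.5), adults and irradiated adults, each with 1 library, and all 4 carried the reporter. Cells were dissociated, sorted by flow cytometry and captured with a 10x Chromium 3' kit. The radiation dose, the time after irradiation, how many animals were used, their sex and the sort gates are not given in the sources used here.

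Each group being a single library, no value has a replicate check and no group difference was tested. Each level is the gene's count of unique molecular identifiers (UMIs, tags that let copies of a captured RNA be counted once), summed over the cells of a group and given per 1000000 UMIs of that group (CPM). Intervals are exact Poisson 95% intervals, which cover counting error only. Ratios are log2((CPM + 1)/(CPM + 1)), and 2-fold apart means a log2 ratio of at least 1 in size. Because there is no spread between animals, each count of chaperone genes past 2-fold is set beside the share of features past 2-fold, among those with at least 50 UMIs in either group.

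In general terms, the inducible chaperones Hspa1a and Hspa1b (a pair of Hsp70 genes), Dnajb1 (an Hsp40 that drives the Hsp70 cycle), Hsph1 (an Hsp110 that exchanges the nucleotide of Hsp70) and Hspb1 (a small heat shock protein that holds unfolding clients) are switched on by heat shock factor 1. Hspa8, Hsp90aa1 and Hsp90ab1 encode the abundant cytosolic Hsp70 and Hsp90 proteins, of which Hsp90aa1 is the more inducible Hsp90. Hspd1 and Hspe1 encode Hsp60 and Hsp10, the barrel and the lid of the chaperonin that folds proteins inside mitochondria. The gut epithelium renews itself from crypt stem cells and holds absorptive enterocytes and the secretory goblet, Paneth, tuft and hormone-making enteroendocrine cells.

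Heat shock factor 1 binds inverted repeats of the letters GAA, so upstream sequences are shown for the genes that turned out to carry such letters. The sequences come from the RefSeq promoter table of mouse build GRCm38.p6, which holds 250 bases before and 50 after each gene start, and 7 of the 10 genes had an entry there. Hspa8, Hsp90aa1 and Hsp90ab1 had none. Capitals mark matches to GAANNTTC or TTCNNGAA, searched on both strands. Each run gives the 250 bases upstream of the start, 5' to 3' on the gene's strand.
Hspe1 (chr1:55087898-55088147, + strand): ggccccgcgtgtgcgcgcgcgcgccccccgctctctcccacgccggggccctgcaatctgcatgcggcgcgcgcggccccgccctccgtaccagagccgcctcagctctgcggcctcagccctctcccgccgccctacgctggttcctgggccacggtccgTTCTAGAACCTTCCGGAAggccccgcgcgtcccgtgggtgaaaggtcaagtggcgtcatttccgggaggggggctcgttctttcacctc
Hspb1 (chr5:135887669-135887918, + strand): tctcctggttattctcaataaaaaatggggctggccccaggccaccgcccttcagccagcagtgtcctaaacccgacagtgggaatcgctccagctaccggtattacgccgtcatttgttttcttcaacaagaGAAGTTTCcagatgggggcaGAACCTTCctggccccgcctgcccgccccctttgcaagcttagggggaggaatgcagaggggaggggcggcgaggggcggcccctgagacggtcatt
Hspa1a (chr17:34972157-34972406, - strand): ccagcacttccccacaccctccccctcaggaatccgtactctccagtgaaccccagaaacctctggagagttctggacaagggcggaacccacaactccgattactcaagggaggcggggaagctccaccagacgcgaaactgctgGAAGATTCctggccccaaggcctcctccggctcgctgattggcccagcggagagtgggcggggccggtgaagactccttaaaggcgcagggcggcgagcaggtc
Hsph1 (chr5:149636337-149636586, - strand): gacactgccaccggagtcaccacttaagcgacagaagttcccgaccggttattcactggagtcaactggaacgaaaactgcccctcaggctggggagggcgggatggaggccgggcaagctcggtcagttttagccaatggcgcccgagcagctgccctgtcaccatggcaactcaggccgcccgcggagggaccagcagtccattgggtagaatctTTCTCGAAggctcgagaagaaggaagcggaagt
Among all 32851 promoter windows of 300 bases in the table, GAANNTTC was present in 7.86% and TTCNNGAA in 8.52%. Hspe1 held 3 overlapping matches, at -89, -84 and -79 bases from its start. These 3 overlap into a run of alternating GAA and TTC blocks, 3 or more blocks long with 2 free letters between blocks, a pattern that 0.603% of windows held. Hspb1 held GAANNTTC at -117 and -97, Hspa1a at -104 and Hsph1 TTCNNGAA at -33. The Hsph1 window held the same longer pattern after its start, at 37, outside the printed bases. The Hspa1a and Hspa1b windows were identical at 296 of 300 bases, so Hspa1b is not printed. No match lay in either of the 2 Dnajb1 windows, which says only that these letters are not in those windows. A match of letters is a description and not a measured binding site.

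Hspd1 and Hspe1 are neighbours that point away from each other on chromosome 1. In the GENCODE M21 annotation of GRCm38, Hspd1 spans 55077835 to 55088243 on the - strand and Hspe1 spans 55088132 to 55091307 on the + strand, so that their 5' ends overlap by 112 bases. One of the 2 Hspd1 promoter windows shared 285 of its 300 bases with the Hspe1 window, read on the opposite strand. The printed match lies upstream of Hspe1 and of that Hspd1 start, but within Hspd1 as GENCODE draws it. The other Hspd1 window, at the GENCODE start, held no match. Hspa1a (34969190 to 34972156) and Hspa1b (34956436 to 34959238) lie 9951 bases apart on chromosome 17, both on the - strand, and Hsp90ab1 lies on the same chromosome at 45567775 to 45573271. The other members are at 83608193 to 83612653 on chromosome 8 (Dnajb1), 149614287 to 149636376 on chromosome 5 (Hsph1), 135887919 to 135889563 on chromosome 5 (Hspb1), 40800984 to 40810087 on chromosome 9 (Hspa8) and 110690605 to 110702728 on chromosome 12 (Hsp90aa1).

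A 3' library reads the ends of transcripts, so copies with like ends can share reads. Of the 50-base stretches in the last 500 bases of the transcript, 81.8% for Hspa8 and 53.2% for Hspe1 also occurred in transcripts of other genes (11 and 6 genes). The shares were 16.0% for Hspb1 and 7.76% for Hsp90ab1, and 0 for the other 6. How the counting treated reads that fit several genes is not given in the sources used here, so the levels of Hspa8 and Hspe1 are uncertain in size. Hspa1a and Hspa1b transcripts were 86.6% identical over their length but only 52.3% over the last 500 bases, and their 3' ends shared no 50-base stretch.

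Of 5216, 5232, 6287 and 5996 deposited barcodes (E12.5, E17.5, adult, irradiated adult), 81.0%, 88.0%, 60.3% and 53.1% had at least 500 genes and at most 20% mitochondrial UMIs. After removal of putative doublets, 4050, 3474, 3597 and 3031 epithelial or unnamed cells entered the comparisons, with medians of 18094, 11624, 3608 and 8554 UMIs per cell. Pairs of libraries shared between 6 and 12 barcodes as deposited and at most 6 among kept cells. The E17.5 library also held 534 pancreatic acinar-like, 140 islet-like, 119 mesenchymal-like, 120 smooth-muscle-like and 22 mesothelial-like cells, which were left out of the epithelial sums although the label says intestinal epithelium. Unnamed clusters stayed in those sums. Among them were E17.5 clusters of 99 and 51 cells left unnamed for islet hormone genes, and an E12.5 cluster of 53 cells led by Ptn, Col3a1 and Col1a1. All 13 enteroendocrine markers reached 50 CPM in the enteroendocrine-like cells of each of the 3 later libraries, and 9 of 10 (adult) and 10 of 10 (irradiated) tuft markers in the tuft-like cells. Crypt-stem-like cells rested on 4 of 9 markers at E17.5 and 6 of 9 in the adult.

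**Figure D1:**
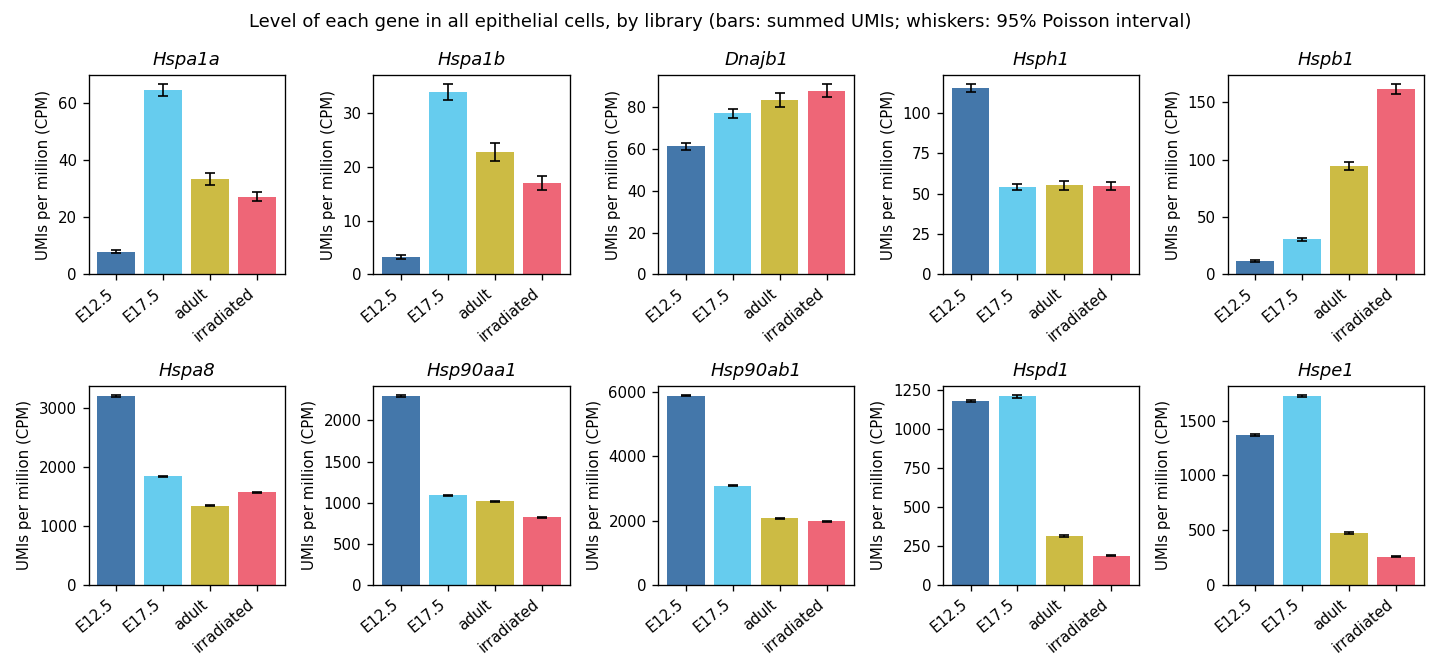
Level of each gene in CPM over all epithelial cells of the 4 libraries, bars from 0, whiskers the 95% Poisson interval (counting error only, 1 library per group). Hspa1a goes from 7.95 CPM at E12.5 to 64.5 at E17.5, Hspd1 from 1209 at E17.5 to 313 in the adult, and Hspb1 is highest after irradiation at 162.

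Among the inducible genes, Hspa1a and Hspa1b were low at E12.5 and highest at E17.5 over all epithelial cells. Hspa1a stood at 7.95 CPM (7.35 to 8.58) at E12.5 and 64.5 (62.5 to 66.5) at E17.5, then at 33.2 (31.2 to 35.4) in unirradiated adults and 27.2 (25.6 to 28.9) after irradiation. Hspa1b was at 3.26 CPM (2.88 to 3.67), 33.9 (32.5 to 35.4), 22.8 (21.1 to 24.5) and 16.98 (15.7 to 18.3) in the same order. The counting intervals of the 4 libraries did not overlap for either gene, and the order was the same. The log2 ratio of E17.5 over E12.5 was 2.87 for Hspa1a and 3.04 for Hspa1b. The E12.5 level was low in every cluster: Hspa1a lay between 2.21 and 15.0 CPM over its 13 clusters.

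Dnajb1 differed little between libraries, with 61.3 CPM (59.6 to 63.0) at E12.5, 77.1 (74.9 to 79.3) at E17.5, 83.4 (80.2 to 86.8) in adults and 88.0 (85.1 to 91.0) after irradiation. Hsph1, although inducible by the same factor, went the other way from Hspa1a between the embryonic stages. It was at 115 CPM (113 to 118) at E12.5 and at 54.1 (52.3 to 56.0), 55.1 (52.4 to 57.8) and 54.8 (52.4 to 57.1) later, so that the last 3 libraries overlapped in their intervals. Hspb1 had another pattern, with 11.7 CPM (11.0 to 12.5), 30.5 (29.1 to 31.9), 94.3 (90.8 to 97.8) and 162 (158 to 166). Hspb1 and Dnajb1 both followed the order of the stages and ended with irradiation, but the adult and irradiated intervals of Dnajb1 overlapped, while no intervals of Hspb1 did.

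The cytosolic chaperones were the most abundant of the 10 by UMI count except at E17.5, where Hspd1 and Hspe1 stood above Hsp90aa1. All 3 cytosolic genes were highest at E12.5. Hsp90ab1 was at 5872 CPM (5856 to 5889) at E12.5, 3084 (3069.9 to 3098) at E17.5, 2077 (2061 to 2094) in adults and 1971 (1957 to 1985) after irradiation. Hspa8 was at 3210.5 (3198 to 3223), 1845 (1835 to 1856), 1347 (1334 to 1360.3) and 1574 (1561 to 1586) CPM. Hsp90aa1 was at 2298 (2288 to 2308), 1090.4 (1082 to 1099), 1015 (1004 to 1027) and 823 (814 to 832) CPM. Thus the lowest library was the irradiated adult for the Hsp90 genes and the unirradiated adult for Hspa8. UMIs of Hsp90aa1 per UMI of Hsp90ab1 were 0.39, 0.35, 0.49 and 0.42 in the 4 libraries.

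The mitochondrial pair did not follow the cytosolic genes. Hspd1 was at 1178 CPM (1170.4 to 1185) at E12.5, 1209 (1200 to 1217) at E17.5, 313 (307 to 320) in adults and 188 (184 to 192) after irradiation. Hspe1 was at 1371 (1363 to 1379), 1723 (1712 to 1733), 478 (470.2 to 486) and 260.1 (255 to 265) CPM. Both stayed high to E17.5 and were 3.85-fold and 3.60-fold lower in the adult. Their UMI ratio, Hspd1 per Hspe1, moved only between 0.66 and 0.86 over the libraries.

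Against the background of all features, the counts of chaperone genes past 2-fold were as follows. Between E12.5 and E17.5, 5 of 10 were at least 2-fold apart, where 32.5% of 14200 features were. Higher at E17.5 were Hspa1a, Hspa1b and Hspb1 (3 of 10, where 15.4% of features were), and lower were Hsph1 and Hsp90aa1 (2 of 10, 17.1% of features). Between E17.5 and adult, 3 of 10 were apart (Hspd1, Hspe1 and Hspb1, with log2 ratios of -1.94, -1.85 and 1.60), where 29.8% of features were. Between adult and irradiated adult, 0 of 10 were apart, where 8.47% of features were. For adult over E17.5, Hspb1 was at 0.81 over every deposited barcode and at 0.51 when CPM was averaged over cells, under 2-fold in both. For irradiated over adult, averaging CPM over cells put Hspb1 past 2-fold, at 1.10. The median log2 ratio of the 10 genes was 0.18, -0.50 and -0.18 in these comparisons, and that of all features -0.21, -0.09 and -0.05. The numbers of chaperone genes past 2-fold were thus close to the background share in the later 2 comparisons, and the medians stood below those of all features there. The E17.5 library enters the first 2 comparisons and the adult library the last 2, so these are not independent. With the normalization factors of edgeR's TMM method, Hsph1 and Hsp90aa1 no longer passed 2-fold between E12.5 and E17.5 (3 of 10 apart), and with a pseudocount of 10 CPM Hsph1 (-0.97) and Hspb1 (0.90) did not.

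The share of cells with at least 1 UMI was compared after each cell had been thinned at random to 2000 UMIs, since depth differed between libraries. Hspa1a was then seen in 1.09% of E12.5 cells, 9.39% at E17.5, 4.98% in the adult and 4.55% after irradiation (unthinned 10.7%, 28.8%, 10.0% and 12.5%). Hspd1 was seen in 87.6%, 64.0%, 22.2% and 22.2% of cells (unthinned 92.0%, 86.8%, 40.4% and 57.6%). Hspb1 was seen in 2.33%, 8.03%, 12.7% and 23.3%. Cells under 2000 UMIs, which were left out, numbered 571, 150, 645 and 483. The E17.5 share of cells with Hspd1 lay below that at E12.5 although its CPM did not, so no order of these stages is read from it. No cell class is known to lack these genes, so the share that free RNA gives is unknown.

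**Figure D2:**
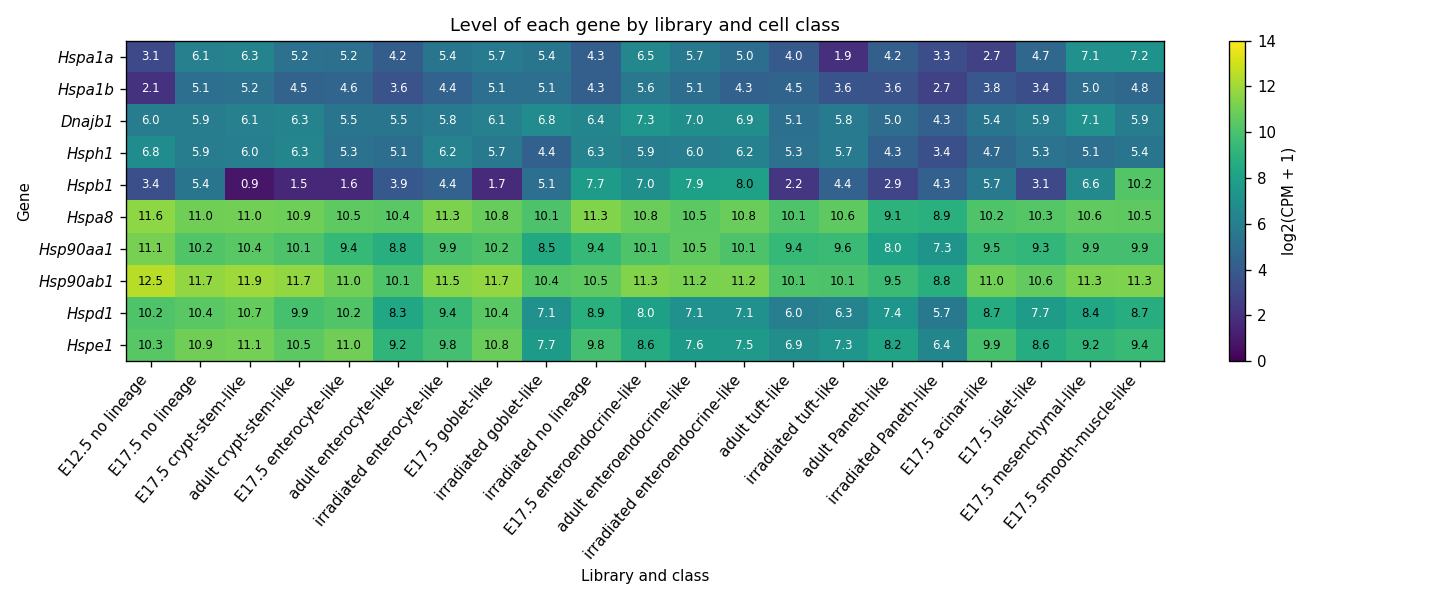
Heat map of the level of each gene, as log2(CPM + 1), in each named class of at least 50 cells in each library. Hspb1 separates the classes most (0.82 CPM in E17.5 crypt-stem-like cells against 1217 in smooth-muscle-like cells), Hsp90ab1 and Hspa8 are high in all, and among the classes drawn Hspd1 is lowest in irradiated Paneth-like cells (49.4 CPM, or 173 without mitochondrial, ribosomal protein and defensin genes, above the 77.0 and 98.4 of tuft-like cells).

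Hspb1 and the mitochondrial pair differed most between enteroendocrine-like and crypt-stem-like cells. In enteroendocrine-like cells, Hspd1 was at 246 CPM (235 to 258) at E17.5, 133 (126 to 140.2) in adults and 135 (130.0 to 140.4) after irradiation. In crypt-stem-like cells it was at 1645 (1627 to 1663) at E17.5 and 954 (930.0 to 979) in adults. Hspe1 was at 387, 194 and 179.9 CPM in enteroendocrine-like cells and at 2163 and 1415 in crypt-stem-like cells. Both genes were therefore several-fold lower in the hormone-making than in the crypt-stem-like cells at each age, by log2 ratios of -2.73 and -2.48 at E17.5 and -2.83 and -2.86 in the adult. Tuft-like cells were lower still, with Hspd1 at 61.5 CPM (54.6 to 69.1) in adults and 77.2 (63.7 to 92.7) after irradiation. The adult crypt-stem-like cells were a single cluster of 123 cells, with Mki67, Ube2c and Top2a, genes of dividing cells, among its top genes. Its median was 47260 UMIs per cell, against 3209 in adult enteroendocrine-like cells. The part of division and depth in the adult ratios was not tested.

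Within a class, the difference between E17.5 and adult was smaller than over all cells in crypt-stem-like and enteroendocrine-like cells and nearly as large in enterocyte-like cells. The log2 ratio of adult over E17.5 was -0.79 for Hspd1 and -0.61 for Hspe1 in crypt-stem-like cells and -0.88 and -0.99 in enteroendocrine-like cells, against -1.94 and -1.85 over all epithelial cells. In enterocyte-like cells it was -1.90 and -1.79, from 1195 to 319.7 CPM for Hspd1 and from 1983 to 573 for Hspe1, with 62 adult cells. The makeup of the libraries moved with this result: enteroendocrine-like cells were 985 of 3474 epithelial cells at E17.5 and 1938 of 3597 in the adult. With the clusters first named enteroendocrine and then set aside as unnamed, they were 1510 and 2230. The summed level of 15 G2/M genes, which mark dividing cells, was 2855, 1958, 542 and 131 CPM in the 4 libraries. The part of either in the levels over all cells was not tested.

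**Figure D3:**
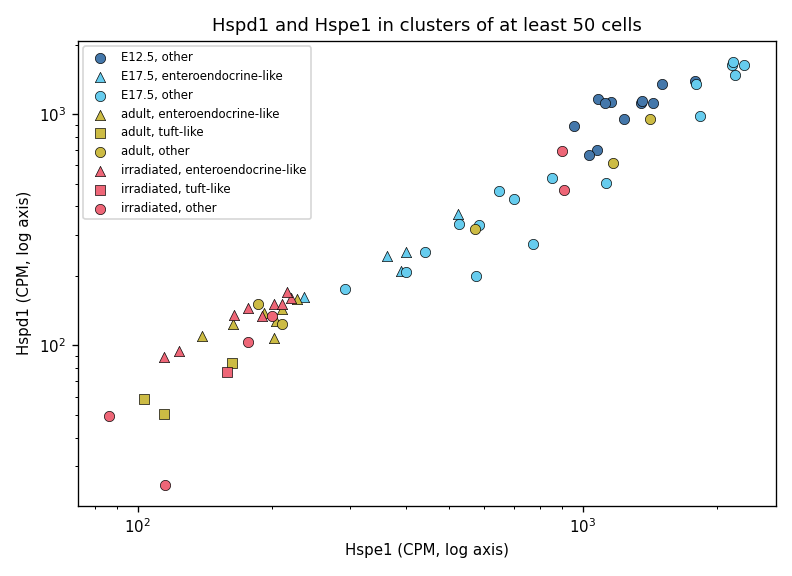
Hspd1 against Hspe1 in clusters of at least 50 cells, both in CPM on log axes, coloured by library and shaped by class. The points run from adult and irradiated clusters, among them the tuft-like ones, at the lower left to E17.5 clusters outside the enteroendocrine-like class at the upper right (Pearson r = 0.97 over 65 clusters).

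Across 65 clusters of at least 50 cells, log2 levels of Hspd1 and Hspe1 had a Pearson r of 0.97, the highest of any pair of members. The next were Hsp90aa1 with Hsp90ab1 (0.90), Hsp90aa1 with Hsph1 (0.87), Hspa8 with Hsp90ab1 (0.84) and Hspa1a with Hspa1b (0.79). Hspa1a with Hsph1 had r = -0.09, although both are targets of the same factor. Hspd1 and Hspe1 also followed the summed G2/M genes (r = 0.85 and 0.87). Clusters share libraries and depth, so these values are descriptions without a test. Cells with and without G2/M UMIs were also set side by side within a class. This split misses dividing cells outside G2/M and depends on depth, so the part of division was not tested. At E17.5, crypt-stem-like cells with at least 3 G2/M UMIs (468 cells) stood at a log2 ratio of 0.03 for Hspd1 (-0.00 to 0.07) and 0.02 for Hspe1 (-0.01 to 0.05) over the 190 without. Among E12.5 epithelial cells of no named lineage the values were 0.10 and 0.14 (1632 cells with at least 3 G2/M UMIs and a median of 23592 UMIs, against 1063 with 15376).

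Hspb1 was almost absent from crypt-stem-like cells. At E17.5 it stood at 126 CPM (118 to 135) in enteroendocrine-like cells and 0.82 (0.47 to 1.32, 16 UMIs) in crypt-stem-like cells. In the adult the values were 238 (229 to 248) and 1.92 (0.99 to 3.36, 12 UMIs), and in adult tuft-like cells 3.70 (2.15 to 5.92, 17 UMIs). The log2 ratio of enteroendocrine-like over crypt-stem-like cells was 6.13 at E17.5 and 6.35 in the adult. E17.5 goblet-like and enterocyte-like cells were also low, at 2.22 and 2.01 CPM. It was highest in smooth-muscle-like cells, at 1217 CPM (1145 to 1291), and in the 22 mesothelial-like cells, at 1389 (1222 to 1572), all of the E17.5 library. The other classes left out of the epithelial sums were lower, at 96.0 CPM in mesenchymal-like, 50.5 in acinar-like and 7.37 in islet-like cells. Over enteroendocrine-like and crypt-stem-like cells, 4 of 10 genes were 2-fold apart at E17.5 (Hspb1 and Dnajb1 higher, Hspd1 and Hspe1 lower), where 42.0% of features were. With TMM factors Dnajb1 was at 0.85. In the adult, 3 of 10 were (the same genes without Dnajb1, at 0.68), where 49.5% of features were. These counts are near or below the background.

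**Figure D4:**
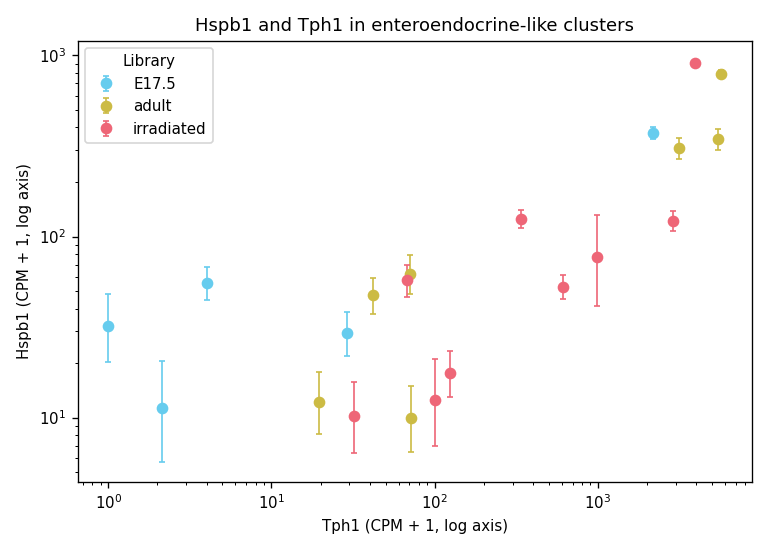
Hspb1 against Tph1, the enzyme that starts serotonin synthesis, in the 21 enteroendocrine-like clusters, both as CPM + 1 on log axes, coloured by library, with 95% Poisson whiskers for Hspb1. Clusters led by Tph1 reach 121 to 907 CPM of Hspb1, while those led by Gip lie at 8.98, 9.23, 11.2 and 11.5.

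Within the enteroendocrine-like class, Hspb1 was unevenly spread over cells that make different hormones. Clusters were grouped by the hormone or lineage gene whose level was nearest its own highest level over the clusters, here called the leading gene: Tph1 (serotonin-making enterochromaffin cells), Gip (the K cell hormone), Cck (cholecystokinin), Sst (somatostatin), Ghrl (ghrelin) or Neurog3 (endocrine precursors). Clusters led by Tph1 had Hspb1 at 372 CPM (345 to 401) at E17.5, 619 (594 to 644) in adults and 668 (648 to 688) after irradiation. Those led by Gip had 10.0 (7.27 to 13.5) in adults and 10.1 (6.74 to 14.4) after irradiation, and those led by Sst 61.1 and 56.3. Cck-led clusters had 54.1 CPM at E17.5, 46.4 in the adult and 61.8 after irradiation, while at E17.5 the Ghrl-led clusters had 29.0 and the Neurog3-led cluster 10.3. Among the top genes of the Ghrl-led clusters, Ghrl stood after Gcg in that of 215 cells and after Sst in that of 101 cells. The E17.5 Ghrl-led group thus mixes cells with different hormones on top. The Tph1-led groups did not overlap any other group in their counting intervals. Single Tph1-led clusters ranged from 306 to 793 CPM in the adult and were at 121 and 907 after irradiation, where 1 Cck-led cluster (125 CPM, 111 to 140) overlapped the lower of them. Over the 21 clusters, Hspb1 and Tph1 had a Pearson r of 0.77, and Tph1 was picked for this after the values were seen.

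The mix of these subsets differed between libraries, which touches every enteroendocrine-like level given here. Tph1-led clusters were 32.4% of the class at E17.5, 30.03% in the adult and 36.7% after irradiation. Gip-led clusters were 55.0% in the adult and 22.4% after irradiation, and Cck-led ones 19.9%, 8.31% and 33.2% in the 3 libraries. These shares depend on the naming, since clusters with Cck and Nts on top of 375 cells at E17.5 and 292 in the adult were left unnamed and lie outside the class, while irradiated clusters with Cck and Nts among their top genes were kept. The 4 irradiated Cck-led clusters include 1 of 112 cells with a median of 1095 UMIs whose leading genes mix several hormones. Over the whole class, Hspb1 had a log2 ratio of 0.91 for adult over E17.5, with 0.73 in the Tph1-led subset. The class value was 0.20 at a clustering resolution of 0.5 and 0.21 when CPM was averaged over cells.

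Immediate early genes, such as Fos and Jun, respond fast to many stimuli including tissue dissociation, and their level moved with some of the inducible chaperones. The summed CPM of 18 of them was 3084, 4077, 8143 and 8597 in the 4 libraries. Between classes it was 9188, 14798 and 12825 in enteroendocrine-like cells (E17.5, adult, irradiated), 3229 and 4339 in crypt-stem-like cells (E17.5, adult) and 2280 and 2253 in tuft-like cells (adult, irradiated). Over the 65 clusters, r with this sum was 0.74 for Dnajb1, 0.63 for Hspb1 and 0.51 for Hspa1a. Within enteroendocrine-like cells, the tercile of cells with the highest immediate early share stood above the lowest tercile by log2 ratios of 1.81, 1.47 and 1.34 for Dnajb1 (E17.5, adult, irradiated). For Hspb1 these were 2.27, 2.90 and 3.28, and for Hspa1a 0.42, 0.47 and 0.79. The summed immediate early level itself was highest in Tph1-led clusters in each library (14599, 19896 and 17241 CPM). Within Tph1-led clusters the ratios were 1.34, 0.05 and 0.62 for Dnajb1, 1.36, 0.64 and 1.44 for Hspb1 and -0.45, 0.10 and -0.85 for Hspa1a. Terciles are ranges of a score and not cell types, and the part of dissociation in these levels was not tested.

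Dnajb1 followed the endocrine class in a milder way than Hspb1. It was at 155 CPM (146 to 165) in E17.5, 124 (117 to 130.4) in adult and 119.6 (115 to 125) in irradiated enteroendocrine-like cells. Crypt-stem-like cells had 68.2 (64.6 to 72.0) at E17.5 and 76.8 (70.1 to 84.0) in adults, and adult tuft-like cells 33.9 (28.8 to 39.7). The intervals of the enteroendocrine-like class did not overlap those of these crypt-stem-like and tuft-like cells. Some other classes did overlap it in their library. These were irradiated goblet-like cells (107, 94.1 to 122), irradiated cells of no named lineage (84.6, 56.2 to 122) and E17.5 mesenchymal-like cells (134, 109 to 163). The 22 E17.5 mesothelial-like cells stood higher, at 250 (182 to 335). Within the enteroendocrine-like class, Tph1-led clusters were again highest in all 3 libraries at 258, 189 and 159.9 CPM.

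Hspa1a had a different spread over classes at E17.5. It was at 89.7 CPM (82.8 to 97.0) in enteroendocrine-like cells, 75.8 (72.0 to 79.7) in crypt-stem-like cells, 67.3 (62.7 to 72.1) in epithelial cells of no named lineage, 52.2 (46.3 to 58.7) in goblet-like and 35.1 (32.0 to 38.3) in enterocyte-like cells. Crypt-stem-like cells and those of no named lineage, which are neighbours in this order, overlapped only at the edge of their intervals. The acinar-like cells of the same library were far below at 5.45 (3.86 to 7.48), and smooth-muscle-like cells above at 144 (120 to 171). The UMI ratio of Hspa1a to Hspa1b was 1.87 in enteroendocrine-like, 0.43 (0.28 to 0.63) in acinar-like and 5.52 (3.52 to 9.02) in smooth-muscle-like cells at E17.5. It was 0.67 (0.48 to 0.91) in adult tuft-like cells, so that the order of the pair changed with the class.

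From E17.5 to the adult, Hspa1a was lower in each of the 3 classes present at both ages. In enteroendocrine-like cells it went from 89.7 to 50.2 CPM (log2 ratio -0.82), in crypt-stem-like cells from 75.8 to 35.8 (-1.06) and in enterocyte-like cells from 35.1 to 16.8 (-1.02). The Tph1-led subset went from 108 (93.3 to 123) to 32.1 CPM and the Cck-led subset from 155 (136 to 175) to 30.3, with log2 ratios of -1.71 and -2.31. The Cck-led clusters were not alike at the 2 ages: the E17.5 cluster had Gip, Cck and Sct as its top genes and the adult cluster Ghrl, Gcg and Cck, so their values are set side by side only. In enteroendocrine-like cells 0 of 10 genes were 2-fold apart between these ages, where 21.7% of features were. The largest were Hspe1 (-0.99), Hspb1 (0.91), Hspd1 (-0.88) and Hspa1a (-0.82), and Hsp90aa1 was higher in the adult, 1118 to 1449 CPM (0.37). In the other epithelial cells all 10 ratios were negative, where 34.5% of all features were positive, and 3 of 10 (Hspd1, Hspe1, Hspa1a) were 2-fold apart, where 26.8% of features were. Hspb1 turned positive there (0.26) when putative doublets were kept. Dnajb1 and Hsph1 did so with TMM factors (0.03 and 0.10) and without mitochondrial, ribosomal protein and defensin genes (0.01 and 0.08). Between E12.5 and E17.5, 4 of 10 of the other epithelial cells' values were 2-fold apart (Hspa1a, Hspa1b, Hsp90aa1 and Hsph1), where 32.9% of features were.

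Adult enteroendocrine-like cells were above tuft-like cells in all 10 genes, by a median log2 ratio of 1.08 where the median of all features was 0.53. Past 2-fold were 6 of 10 in the adult (Hspb1 5.67, Dnajb1 1.84, Hspa1a 1.70, Hsp90aa1 1.10, Hspd1 1.10 and Hsp90ab1 1.07), where 44.5% of features were apart and 34.1% were higher. After irradiation 4 of 10 were (Hspb1, Hspa1a, Dnajb1 and Hsp90ab1), where 41.1% of features were apart and 31.7% higher. With TMM factors the counts were 3 and 2, since that scaling lowered all adult ratios of this comparison by 0.59, and Hspa8 (-0.26) and Hspa1b (-0.04) changed sign. Median mitochondrial content was 9.77% over adult epithelial cells against 3.69% at E17.5, and its part in class differences was not tested.

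**Figure D5:**
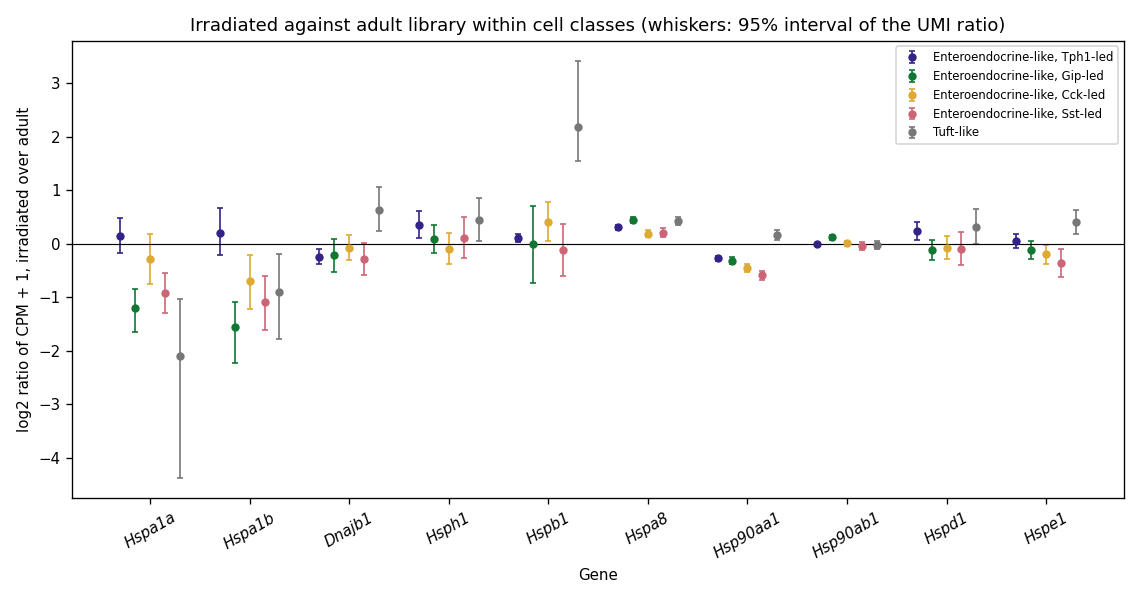
Log2 ratio of irradiated over unirradiated adult for each gene in Tph1-, Gip-, Cck- and Sst-led enteroendocrine-like clusters and in tuft-like cells. Whiskers are the 95% interval of the ratio of UMI rates without the pseudocount, and the line marks equal levels. Most points lie within 2-fold. Those outside are Hspa1a (-1.20) and Hspa1b (-1.56) in Gip-led clusters and Hspa1b (-1.08) in Sst-led clusters. In tuft-like cells they are Hspa1a (-2.09) and Hspb1 (2.18).

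After irradiation the chaperone genes of the enteroendocrine-like class as a whole differed little from the unirradiated adult, while some subsets differed more. None of the 10 was 2-fold apart, where 5.40% of features were, and their median log2 ratio was -0.01 against 0.03 over all features. Hspa1b went from 32.4 (29.1 to 36.0) to 19.1 CPM (17.2 to 21.1) and Hspa1a from 50.2 (46.1 to 54.6) to 31.7 (29.3 to 34.3), log2 ratios of -0.74 and -0.65. Hsp90aa1 went from 1449 (1426 to 1472) to 1081 (1066 to 1096), while Hspa8 went up from 1403 (1381 to 1426) to 1789 (1770 to 1808), ratios of -0.42 and 0.35. Hspb1 (238 and 256 CPM), Hsp90ab1 (2352 and 2423) and Hspd1 (133 and 135) had log2 ratios of 0.10, 0.04 and 0.02, although Hspb1 was at 0.65 when CPM was averaged over cells. Hsp90aa1 was lower in 4 of 4 subsets (Tph1 1551 to 1288, Gip 1362 to 1094, Sst 1763 to 1171, Cck 1233 to 899.5 CPM). Hspa8 was higher in 4 of 4 (1738 to 2151, 1055 to 1437, 1556 to 1802 and 1429 to 1627 CPM). Hspa1a was not alike over subsets: it was lower in Gip-led (55.6 to 23.6) and Sst-led clusters (127 to 67.2), and its interval spanned 0 in Cck-led (-0.76 to 0.18) clusters, while Tph1-led ones had 32.1 and 35.6 CPM. Past 2-fold were Hspa1a (-1.20) and Hspa1b (-1.56) in Gip-led clusters and Hspa1b (-1.08) in Sst-led clusters. Hspa1b was at -0.69 in Cck-led and 0.21 in Tph1-led clusters.

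Tuft-like cells were fewer after irradiation (972 and 248 cells), and their low genes rest on few UMIs. Hspa1a was at 14.8 CPM (11.5 to 18.7, 68 UMIs) in adults and 2.71 (0.74 to 6.93, 4 UMIs) after irradiation. Hspb1 was at 3.70 (17 UMIs) and 20.3 CPM (13.7 to 29.0, 30 UMIs). These were the 2 of 10 genes past 2-fold, and 1 of the 9 with at least 50 UMIs in either group, where 3.05% of features were. With a pseudocount of 10 CPM, Hspa1a was at -0.96. The summed enteroendocrine markers in tuft-like cells were at 595 CPM in the adult and 1733 after irradiation, with none of the 13 at 0 in either, and their part in the Hspb1 value was not tested. Hspa8 (1117 and 1502 CPM) and Hspe1 (119.8 and 158) were higher after irradiation by log2 ratios of 0.43 and 0.40.

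In the other epithelial cells, 1 of 10 genes was 2-fold apart after irradiation, where 14.4% of features were: Hspb1, at a log2 ratio of 2.40. Its value was 1.59 with putative doublets kept, 2.13 without unnamed clusters and 3.48 at a resolution of 0.5. Irradiated clusters outside the enteroendocrine-like class with high Hspb1 were an unnamed one of 191 cells with endocrine genes among its leaders (293 CPM, 274 to 314, with Tph1 at 1877 CPM) and one of 200 cells of no named lineage led by Lgals3, Gpx2 and Anxa2 (211 CPM, 165 to 267). The latter had a median of 1406 UMIs per cell and 9 of 13 enteroendocrine markers at 50 CPM or more, and the part of RNA from other cells was not tested. Named classes were small. Paneth-like cells (210 and 93 cells, in which 8 Paneth markers summed to 533237 and 598784 CPM) had Hspd1 at 163 and 49.4 CPM and Hspe1 at 288 and 86.4. Their median depth was 2930 UMIs per cell in the adult and 98899 after irradiation. Of the adult Paneth-like cells, 136 came from a cluster with a median of 1912.5 UMIs. The part of this difference in the Paneth-like values was not tested. Enterocyte-like cells came from differing clusters, the 90 irradiated cells being led by Reg3b, Ccnd1 and Gsta1, and are set side by side only: Hsp90ab1 was at 1134 CPM in the adult and 2956 after irradiation, and Hspd1 at 319.7 and 693. All 10 log2 ratios were positive in enterocyte-like cells, from 0.30 for Dnajb1 to 1.38 for Hsp90ab1. No background share is given for this class.

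The wider chaperone system was followed with lists of genes drawn from general knowledge. Between E12.5 and E17.5, the Hsp90 co-chaperones were lower in 12 of 12 genes, 2 of them past 2-fold, where 17.1% of all features were, with a median log2 ratio of -0.66 beside -0.21 for all features. Ahsa1, which speeds the ATPase of Hsp90, went from 131 to 19.5 CPM (-2.69), and Fkbp4, an Hsp90-binding immunophilin, from 946 to 330.4 (-1.51). The subunits of the cytosolic chaperonin TRiC were lower in 7 of 7 measured, 2 past 2-fold (Cct2 -1.03 and Cct3 -1.02), median -0.92. Of 17 measured Hsp70 family and co-chaperone genes, 1 was past 2-fold higher (Dnaja4, 2.22) and 3 lower (Bag2 -2.15, Bag3 -1.53 and Dnaja1 -1.13), median -0.67. Mitochondrial chaperones and proteases and chaperones of the endoplasmic reticulum had none past 2-fold and medians of 0.16 and 0.15. Thus the cytosolic lists stood below the median of all features and the organelle lists above it. The heat shock factor genes Hsf1 (29.2 to 16.1 CPM, -0.82) and Hsf2 (25.3 to 11.5, -1.07) were also lower at E17.5, opposite to Hspa1a and Hspa1b.

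From E17.5 to the adult, 7 of 8 mitochondrial chaperones and proteases were lower, 1 of them past 2-fold (Grpel1, the nucleotide exchange factor of the mitochondrial Hsp70, 270.5 to 109.9 CPM), median -0.65 beside -0.09 for all features. TRiC (7 of 7 lower, 2 past 2-fold, median -0.82) and prefoldin (6 of 6 lower, 2 past 2-fold, median -0.77) went the same way, and of 12 Hsp90 co-chaperones 3 were past 2-fold lower (Ppid, Ptges3 and Cacybp) and 1 higher (Unc45a). Of all features, 15.2% were past 2-fold lower and 14.6% higher between these libraries. Bag3, the co-chaperone of Hsp70 in selective autophagy, was higher in the adult by 2.29. After irradiation none of the Hsp70, TRiC, prefoldin, mitochondrial or endoplasmic reticulum genes was 2-fold apart over all epithelial cells. The exception among Hsp90 co-chaperones was Ahsa1, at 13.0 CPM in the adult and 30.5 after irradiation (1.17), and at 11.5 and 30.4 in enteroendocrine-like cells (1.33). Of 3 measured small heat shock genes, Cryab (0.30 to 2.07 CPM, 1.24) and Hspb8 (0.30 to 1.76, 1.08) were past 2-fold higher, each from 9 UMIs in the adult. Over all epithelial cells, 3.06% of features were past 2-fold higher after irradiation and 5.41% lower.

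Between classes, the lists for the mitochondrion and the endoplasmic reticulum differed in direction at E17.5. Enteroendocrine-like over crypt-stem-like cells, 3 of 8 mitochondrial genes were past 2-fold lower there and none higher. Of all features, 16.9% were past 2-fold lower and 25.1% higher. The median of the 8 mitochondrial genes was -0.66, with Hspa9, the mitochondrial Hsp70, at 92.2 against 250.2 CPM. In the adult 6 of 8 were past 2-fold lower and 1 higher, median -1.35, beside 0.36 for all features, of which 49.5% were 2-fold apart. The lowest were Trap1 (-2.09), Hspa9 (-1.92) and Grpel1 (-1.86). Endoplasmic reticulum chaperones were higher in 11 of 11 at E17.5, 3 of them past 2-fold, median 0.90 beside 0.20 for all features, while in the adult 5 of 11 were higher and the median was -0.03. Hspd1 and Hspe1 thus went with the other mitochondrial genes of the list. Dnaja4, an Hsp40, was at 101 CPM in adult enteroendocrine-like and 2.09 in adult crypt-stem-like cells.

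Over 21 groups of library and class with at least 100 cells, the genes whose log2 level was most like the summed mitochondrial pair were Phb2, Ddx39, Tomm5, Tsfm (Pearson r of 0.98 each) and C1qbp (0.97), out of 6194 genes. For the sum of Hspa8, Hsp90aa1 and Hsp90ab1 they were Hnrnpu (0.97), Psmd1, Sfpq (0.96 each), Cherp (0.95) and Pcbp1 (0.94). For the sum of the 5 inducible genes they were Bmpr1a, Lims1 (0.85 each), Actn1, Lpp and Sdc2 (0.84 each). The groups share libraries, so these correlations are descriptions.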

How the data were processed

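Single-cell RNA was measured in 4 libraries, 1 per group. The authors made the deposited matrices of UMI counts with Cell Ranger 3.1.0 on build mm10, per the submitters' processing notes; how reads that fit several genes were treated is not given in the sources used here. The counts were used as deposited. Barcodes needed 500 genes or more and no more than 20% of UMIs from mitochondrial genes, and putative doublets were removed with Scrublet in scanpy 1.11.5, at an assumed rate of 0.8% per 1000 barcodes. Each library was clustered on 2000 variable genes, 30 principal components, 20 neighbours and Leiden resolution 1, with the 10 genes and the chaperone lists left out of the variable genes. A cluster was named from marker lists when at least 3 markers reached 50 CPM and 10% of cells and the marker score reached 0.5; the naming thresholds were set after the clusters were seen and before member levels were computed. UMIs were summed per class and library, scaled to CPM, and compared as log2 ratios with a pseudocount of 1 CPM. Background shares cover features with at least 50 UMIs in either group. All 10 genes are named, as are at most 4 genes past 2-fold per list and comparison (largest first) or genes that define a list, and the 5 genes most like each subgroup. Tph1 and a few values of these genes in other comparisons were named after their values were seen. The genes and lists were chosen with earlier results of these data known. The steps were tested on simulated data. Alternatives were other filters, doublets kept, other resolutions, TMM factors (edgeR 4.0.16), mean cell CPM, other pseudocounts and other gene sets in the total.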

Additional observations from a re-analysis of the deposited data

Results flagged for a closer look

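Some genes had log2 ratios of opposite sign in 2 cell classes under the same contrast, with counting intervals on opposite sides of 0. The difference between the classes was not tested, since each rests on 1 library per group. For irradiated over unirradiated adult, Hsp90aa1 was at -0.42 in enteroendocrine-like and 0.16 in tuft-like cells, a difference of -0.59, but with TMM factors the tuft-like value was -0.05. Hspe1 was at -0.11 and 0.40 in the same classes, a difference of -0.51. Hsph1 was at 0.14 in enteroendocrine-like and -0.34 in the other epithelial cells, a difference of 0.48, and Hsp90ab1 was at 0.04 and -0.34, a difference of 0.39. When CPM was averaged over cells these values of the other cells were 0.16 and 0.06, and Hsp90ab1 was also above 0 with TMM factors, so the opposite signs were lost. For adult over E17.5, Hspb1 was at 0.91 in enteroendocrine-like and -0.62 in the other epithelial cells, a difference of 1.53, and Hsp90aa1 was at 0.37 and -0.50, a difference of 0.88. The Hspb1 value in the other epithelial cells turned to 0.26 with putative doublets kept, and that in enteroendocrine-like cells was 0.20 at a resolution of 0.5. The other epithelial cells include unnamed clusters with hormone genes on top (525 cells at E17.5 and 292 in the adult), so they are not a class without endocrine cells. Without unnamed clusters the Hspb1 value there was -0.99.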

How the results depend on the processing

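No paired analysis was possible because each group has 1 library. Of 169 counts of genes past 2-fold over 14 settings and 13 comparisons, 150 stayed within 1.5 times the count reported and 19 moved. With TMM factors the count went from 5 to 3 for E17.5 over E12.5 in all epithelial cells, from 4 to 2 in the other epithelial cells, from 0 to 1 for adult over E17.5 in enteroendocrine-like cells, and from 6 to 3 (adult) and 4 to 2 (irradiated) for enteroendocrine-like over tuft-like cells. Without mitochondrial, ribosomal protein and defensin genes the last 3 were 1, 3 and 2. A pseudocount of 10 CPM gave 3 for E17.5 over E12.5 in all epithelial cells and 1 in place of 2 for irradiated over adult tuft-like cells. For adult over E17.5 enteroendocrine-like cells, 1 gene passed with doublets kept, when CPM was averaged over cells and without the 1% of cells with most UMIs, and 2 at a resolution of 0.5. For adult over E17.5 in the other epithelial cells, the stricter filter (1000 genes, 10% mitochondrial) and the mean cell CPM each gave 5 in place of 3. The stricter filter gave 3 in place of 6 for adult enteroendocrine-like over tuft-like cells, the mean cell CPM 1 in place of 0 for irradiated over adult in all epithelial cells, and resolution 0.5 gave 2 in place of 1 in the other epithelial cells. The cause was not tested. TMM moved the median of all features by -0.59 and -0.35 for enteroendocrine-like over tuft-like cells (adult, irradiated), -0.33 and -0.30 over crypt-stem-like cells, 0.35 for irradiated over adult other epithelial cells, -0.21 in tuft-like cells, and 0.22, 0.19, 0.16 and 0.10 between stages. Keeping the first cluster names and leaving out unnamed clusters were chosen after seeing the data. Comparisons with under 20 cells of a class gave no value, and every deposited barcode allowed no classes. Hspb1 in crypt-stem-like and tuft-like cells and Hspa1a in irradiated tuft-like cells rest on few UMIs, all under 50 in a group.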
